A study of Drosophila melanogaster with 2 samples.

Results

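E2f1 summits between divergent promoters are the places where the peak of E2f1 binding lies between the start sites of a pair of protein-coding genes that point away from each other. A summit was counted when it lay no more than 500 bp upstream of the start of transcription (TSS) of a plus-strand coding gene, and also of that of a minus-strand one. Of the 4439 regions in the authors' conservative set, 626 met this rule, which is 14.1% (exact 95% interval 13.1 to 15.2%). Among the 1745 summits that lay upstream of any coding TSS within this distance, they made up 35.9% (33.6 to 38.2%). A further 1119 summits lay upstream of coding genes on 1 strand only and are called single-direction summits below, and 185 lay just downstream of a TSS.

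The binding was measured by chromatin immunoprecipitation and sequencing (ChIP-seq) in whole Drosophila melanogaster embryos collected over 0 to 24 hours of development. The flies were transgenic and made E2f1 fused to enhanced green fluorescent protein, in the strain labelled E2f1-GFP, and the antibody recognised the green fluorescent protein. There was 1 group with 2 biological replicates, so no treatment, stage or genotype is compared. Both replicates carry the fusion and one and the same donor label, the promoter that drives it is not stated in the labels, and a whole embryo mixes many tissues and stages, so a site bound in few cells and a site bound weakly in many cannot be told apart.

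E2f1 is the activating member of the fly E2F family. With its partner Dp it binds short GC-rich sites near the start of genes for DNA synthesis and cell division, and the Rb-family proteins hold it inactive until a cell enters S phase. Divergent promoters are common in the compact fly genome: neighbouring genes are read in opposite directions from a shared, nucleosome-poor stretch, and both tend to be active in most cells. Such promoters often carry the DNA replication-related element (DRE), bound by the factor DREF, the overlapping core motif of the boundary factor BEAF-32, or the core promoter motifs 1, 6 and 7 of Ohler, the first of which is bound by M1BP.

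The sequence between the start sites is shown first for the 3 summits with the highest deposited peak score. Of the 10 motifs studied, these stretches held none of 8 (E2F site, DRE, M1BP core, E-box, GAGA, Zelda, Ohler motifs 6 and 7). Each held 1 BEAF-32 core, CGATA, and that between Art3 and mRpS10 also 1 cell cycle genes homology region, TTCGAA; only the BEAF-32 core between Tcs5 and CHMP2B lay within 50 bp of the summit, at 11 bp. They run from the minus-strand gene's start site to that of the plus-strand gene, on the plus strand of the RefSeq Release 6 (dm6) assembly, and lie at chr3R:29736745-29736965, chr3L:5139395-5139619 and chr3R:15229408-15229665. The capitals mark the 21 bases centred on the E2f1 summit.
CG7601 and CIA30: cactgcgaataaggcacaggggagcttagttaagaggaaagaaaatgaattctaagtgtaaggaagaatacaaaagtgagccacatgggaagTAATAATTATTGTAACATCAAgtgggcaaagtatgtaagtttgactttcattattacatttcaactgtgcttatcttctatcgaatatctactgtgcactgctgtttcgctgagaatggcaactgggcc
Tcs5 and CHMP2B: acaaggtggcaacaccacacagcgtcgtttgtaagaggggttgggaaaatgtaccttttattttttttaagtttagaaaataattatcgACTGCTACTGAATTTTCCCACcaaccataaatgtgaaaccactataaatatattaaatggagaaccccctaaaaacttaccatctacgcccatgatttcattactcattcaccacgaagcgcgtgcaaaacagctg
Art3 and mRpS10: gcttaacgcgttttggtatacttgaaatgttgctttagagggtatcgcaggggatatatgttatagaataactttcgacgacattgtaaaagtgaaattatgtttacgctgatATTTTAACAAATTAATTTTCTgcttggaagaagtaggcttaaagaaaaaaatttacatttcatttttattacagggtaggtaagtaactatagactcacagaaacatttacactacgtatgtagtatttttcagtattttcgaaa
In all 3 the summit sits near the middle, 99 to 123 bp from the minus-strand start and 118 to 134 bp from the plus-strand start. The 21 bases at the summit hold 14.3% G and C for CG7601 and CIA30, 42.9% for Tcs5 and CHMP2B, and 9.52% for Art3 and mRpS10.

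The contrasting case is shown next: 4 of the highest summits with an E2F site within 50 bp, then 4 of the highest with a DRE. An E2F site was TTCCCGC, or the variant TTCGCGC, or the variant TTGCCGC, or else TTGGCGC, and a DRE was TATCGATA, each on either strand. Each window holds the summit and 50 bases on either side of it, on the plus strand of the same assembly, and capitals mark E2F sites and DREs. The windows with E2F sites lie at chr3L:4825725-4825825, chrX:6674321-6674421, chr3R:27112367-27112467 and chr3R:19156814-19156914.
Dhc64C and LeuRS-m: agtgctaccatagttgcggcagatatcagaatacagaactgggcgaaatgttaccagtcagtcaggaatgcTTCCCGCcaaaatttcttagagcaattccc
CG3198 and Mcm6: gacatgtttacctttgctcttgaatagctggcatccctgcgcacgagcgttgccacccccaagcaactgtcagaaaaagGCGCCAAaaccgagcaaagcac
gb and CG5815: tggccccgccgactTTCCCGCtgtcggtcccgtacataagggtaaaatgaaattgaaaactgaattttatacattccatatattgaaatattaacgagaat
CG11779 and nanos: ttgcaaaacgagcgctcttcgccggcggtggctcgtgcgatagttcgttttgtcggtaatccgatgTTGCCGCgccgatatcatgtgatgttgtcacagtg
The windows with DREs lie at chr3R:26059253-26059353, chr2L:6956935-6957035, chr3R:11216284-11216384 and chr2L:13829754-13829854.
RpL34a and Trmt61: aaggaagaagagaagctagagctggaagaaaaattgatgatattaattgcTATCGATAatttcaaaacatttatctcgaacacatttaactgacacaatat
CG13775 and CG3430: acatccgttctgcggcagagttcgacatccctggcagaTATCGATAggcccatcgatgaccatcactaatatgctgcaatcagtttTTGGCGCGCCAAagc
RpS25 and CG4820: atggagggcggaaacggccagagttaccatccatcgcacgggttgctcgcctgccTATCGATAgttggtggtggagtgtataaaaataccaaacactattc
Arpc1 and Orc5: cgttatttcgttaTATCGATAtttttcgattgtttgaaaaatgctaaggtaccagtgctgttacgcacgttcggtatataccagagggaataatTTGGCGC
In the window between RpL34a and Trmt61 the DRE begins on the summit base itself. The E2F site in the window of CG3198 and Mcm6 begins 29 bases to the right of the summit. It lies past the nearest start site of Mcm6, a subunit of the replicative helicase, which is 16 bp from the summit. Both the DRE and E2F sites lie in the window of CG13775 and CG3430 and in that of Arpc1 and Orc5. In these windows only the DRE lies between the start sites. The E2F sites begin 36 and 41 bases right of the summit for CG3430, whose start is at 23 bp. For Orc5 the site begins at 44 bases and the start is at 33 bp. Orc5 is a subunit of the origin recognition complex and Arpc1 of the actin-nucleating Arp2/3 complex.

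Peak height is a score in the authors' files, and each replicate's own height is that of its tallest overlapping candidate region. The highest summit, between CG7601 and CIA30, an assembly factor of respiratory complex I, had a height of 1774 in the conservative set, with 879.6 in replicate 1 and 913.9 in replicate 2. That between Tcs5, a kinase needed for a tRNA modification, and CHMP2B, a subunit of the ESCRT-III membrane machinery, had 1704, with 832.5 in replicate 1 and 886.5 in replicate 2. Between Art3, a protein arginine methyltransferase, and mRpS10 of the small mitochondrial ribosomal subunit it was 1662, with 807.6 in replicate 1 and 855.4 in replicate 2. These 3 were slightly higher in replicate 2.

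Mitochondrial ribosomal genes recurred among the 10 highest summits. Over the 17 such genes with a divergent summit the median height was 144.4, near the 141.6 of all divergent summits. The summit between mRpS23 and CenG1A, an Arf GTPase-activating protein, had heights of 885.3 and 721.3 in replicates 1 and 2, and that between mRpL23 and CG9004 had 599.1 and 623.1. Another of the 10 highest lay between Chro, a spindle and interband chromatin protein, and Ssl1, a subunit of transcription factor TFIIH (708.9 and 657.9). Further ones lay between CG13390 and CG17294 (593.2 and 539.2), between CG1275 and Elp5 of the Elongator complex (546.9 and 497.5), and between Dhc64C, the cytoplasmic dynein heavy chain, and LeuRS-m, a mitochondrial leucyl-tRNA synthetase (877.6 and 363.3). The replicate heights were close in all of the pairs named here but the last, the only one of the 10 with an E2F site within 50 bp of the summit, where replicate 1 was far higher.

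Over all 626 divergent summits the median height was 141.6 (quartiles 95.01 and 238.8). In replicate 1 the median was 79.5 (52.9 and 129.5), and in replicate 2, where 619 had a candidate region, it was 66.6 (42.6 and 115.2). Across the 619 with both, log2 heights correlated with a Pearson r of 0.871 and a Spearman rho of 0.817. Both values are descriptions over regions that share both libraries. The conservative set was thresholded on the irreproducible discovery rate over both replicates, which keeps regions partly for their agreement. Such a choice can raise the correlation, and its part was not tested. The median gap between the replicates' summits was 25 bp. Single-direction summits had a median height of 129.4 (85.9 and 230.7). Of the divergent summits 381, or 60.9%, exceeded the median of all regions, which by construction 50% of regions do, against 647 of 1119, or 57.8%, of single-direction summits. This difference of 3.04 percentage points did not pass a two-sided Fisher's exact test (p = 0.224).

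Of the divergent summits, 485 overlapped the set called in replicate 1 alone and 493 the set called in replicate 2 alone. Both sets held 417 of them, or 66.6% (62.8 to 70.3%), against 684, or 61.1%, of single-direction summits and 55.3% of all regions. The difference of 5.49 points passed Fisher's exact test (two-sided p = 0.0230). It depended on the set of regions. Among the summits called in replicate 1 alone, the share also found in replicate 2 was 10.5 points higher for divergent summits (Fisher's exact p = 1.04e-05), while among those called in replicate 2 alone the difference was -2.39 points (Fisher's exact p = 0.284). It was 7.68 points in the larger set (Fisher's exact p = 0.00121) and 1.12 points at an irreproducible discovery rate (IDR) of 0.001 (Fisher's exact p = 0.553). The deposited q-like value was above 0.05 for 68 divergent summits (10.9%), and 17 had a height below both replicates' own candidates, with summits a median of 198 and 176 bp from those of replicates 1 and 2.

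**Figure D1:**
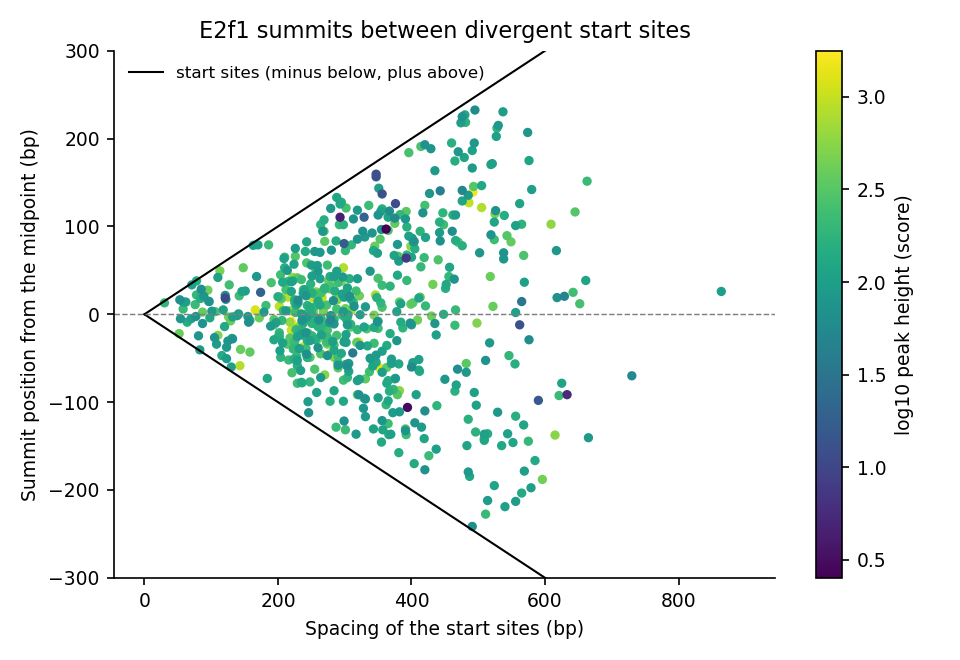
Position of each of the 626 divergent summits relative to the midpoint of its start sites (vertical axis, bp, minus-strand gene below and plus-strand gene above) against the spacing of the start sites (horizontal axis, bp), coloured by log10 peak height. The points centre on the midpoint, with a median offset of 0.75 bp, and spread as the spacing grows.

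The start sites around a divergent summit were a median of 304 bp apart (quartiles 242 and 410.5, range 30 to 864). The rule limits this spacing to 1000 bp, so the spacing and the distances below are descriptions. The summit lay a median of 46 bp from the midpoint of the start sites, and 330 of 626 (52.7%) lay within 50 bp of it. It favoured neither strand: 308 lay closer to the minus-strand start, 316 closer to the plus-strand start and 2 halfway. The plot of summit position by spacing shows this symmetry. The nearer start site, by construction the smaller of 2 distances, was a median of 99 bp away (quartiles 61.3 and 129). Taken by strand, the medians were 141.5 bp to the minus-strand start and 138 bp to the plus-strand start. A single-direction summit lay a median of 175 bp (99 and 288.5) from its own start site. The closest start sites, 30 bp apart, belonged to ana2, a centriole assembly gene, and CG13751. The widest, 864 bp apart, belonged to the mRNA capping enzyme gene mRNA-cap and CG32599, where only 8.91% of the bases within 50 bp of the summit were G or C. At the edge of the rule, the 51 summits whose farther start site was over 400 and up to 500 bp away had a median height of 105.8, and the 37 summits at over 500 and up to 600 bp, just outside it, had 103.9.

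Start sites over 200 and up to 300 bp apart were the ones most often bound. The annotation holds 2667 divergent coding gene pairs with start sites at most 1000 bp apart, and 658 of them (24.7%, 23.0 to 26.4%) had a divergent summit, a share that the rule itself uses. A pair's spacing and midpoint are those of its closest start sites, while a summit's are those of the start sites nearest to it. The classes can therefore differ: up to 100 bp there were 85 bound pairs but 25 divergent summits. To give every pair the same room, a summit of any kind was counted within 250 bp of the midpoint, which 26.4% of all pairs had. This share was 21.4% (17.6 to 25.6%) at a spacing of up to 100 bp, 23.3% (19.0 to 28.1%) from there to 200 bp, 40.04% (35.9 to 44.3%) from there to 300 bp, 32.7% (29.1 to 36.4%) from there to 500 bp and 14.1% (11.6 to 17.0%) from there to 1000 bp. The intervals of the classes up to 100 and up to 200 bp overlapped, and so, slightly, did those of the classes up to 300 and up to 500 bp. Each class below is named by its limits and leaves out the lower one.

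The 223 divergent summits whose nearest start sites were 200 to 300 bp apart were also higher. Their median height was 101.8 in replicate 1 and 85.4 in replicate 2, above the medians of the other spacing classes, which were 67.0 to 73.9 in replicate 1 and 36.6 to 68.5 in replicate 2. Of them 165, or 74.0%, exceeded the median height of all regions, against 216 of the other 403 (53.6%). Both replicate sets held 177 of them, or 79.4%, against 240, or 59.6%, of the others. This spacing class was singled out after its values were seen to be the highest, so these differences are given without a test. Its summits also had the lowest median GC content within 50 bp, 28.7%. The other classes had 45.5% up to 100 bp, 37.6% at 100 to 200 bp, 29.7% at 300 to 500 bp and 33.7% beyond. Up to 100 bp, the nearer start site was a median of 22 bp from the summit, so this window reached past start sites. The part of base composition in the heights was not tested.

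**Figure D2:**
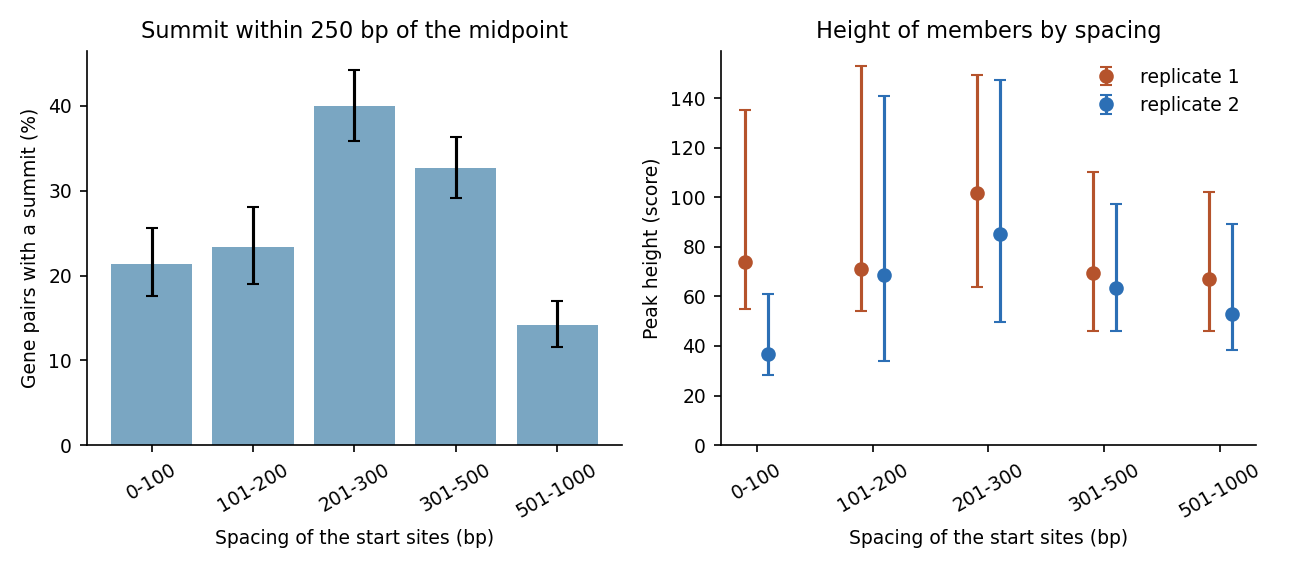
Left, share of divergent gene pairs with any E2f1 summit within 250 bp of their midpoint (bars, %, with exact 95% intervals) by spacing (bp). Right, median peak height (score) of the divergent summits in each replicate by spacing, with bars from the lower to the upper quartile. Spacing is that of the pair's closest start sites on the left and of those nearest the summit on the right. Both panels peak in the class that reaches 300 bp, at 40.04% of pairs and at heights of 101.8 and 85.4.

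The sequence at divergent summits was poor in G and C. The median GC content within 50 bp of the summit was 29.7% (quartiles 24.8 and 38.6) at divergent summits and 32.7% (26.7 and 42.6) at single-direction summits. At divergent summits the mean rose to 46.3% and 46.6% at 300 bp to the left and right, where the genes themselves lie, while around single-direction summits it reached 43.2% and 42.4%. Short words of A and T were common there. The most frequent, AAATAAA or its complement, was found within 50 bp of 148 divergent summits (23.6%), against 14.2% and 16.0% of the windows 200 bp to the left and right of them and 17.2% of the windows at single-direction summits. The next, AAATAAT or its complement, was found within 50 bp of 146 divergent summits (23.3%), against 9.11%, 7.35% and 11.6%. These words were picked by their counts, so no test is given.

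E2F sites were few at divergent summits, at a share near that of all regions. Within 50 bp of the summit, 29 of 626 divergent summits (4.63%, exact 95% interval 3.12 to 6.59%) and 57 of 1119 single-direction summits (5.09%) had one, with 4.17% of all regions as the background and an adjusted p of 0.811 by Fisher's exact test with Benjamini-Hochberg adjustment over the 10 motifs. Of the 2509 summits over 500 bp from any coding TSS, 72 had an E2F site (2.87%). Of the summits just downstream of a start site, 27 of 185 had one (14.6%, 9.84 to 20.5%). The difference, divergent minus downstream, was -9.96 percentage points (odds ratio 0.284). This comparison was chosen after the values were seen, so no test is given. The median GC content within 50 bp was 44.6% at downstream summits, against 29.7% at divergent ones. The part of base composition in this difference was not tested. A match is a description of letters, and a window without one says nothing about the factor.

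Of the 4 motifs that passed, the DRE, the BEAF-32 core and Ohler motif 7 were more frequent at divergent summits and the GAGA-factor motif was less frequent there. The DRE lay within 50 bp of 36 divergent summits (5.75%) and 30 single-direction ones (2.68%), with 1.71% of all regions as the background (odds ratio 2.21, adjusted Fisher's exact p = 0.0163). The BEAF-32 core CGATA, which lies inside the DRE, was at 158 (25.2%) against 217 (19.4%; background 15.1%, adjusted Fisher's exact p = 0.0258), but counted outside DREs it was at 137 against 202 (Fisher's exact p = 0.0584). Ohler motif 7 was at 41 (6.55%) against 44 (3.93%; background 2.39%), and the GAGA-factor motif GAGAGAG was at 1 (0.160%) against 14 (1.25%; background 0.924%), each with an adjusted Fisher's exact p of 0.0497. None of these 4 differences passed among the summits called in replicate 2 alone, and only that of GAGA did among those called in replicate 1 alone. None passed at an IDR of 0.001, with outermost start sites or in windows of 25 bp. With an upstream distance of 200 bp none passed, and the differences of the BEAF-32 core (-6.50 points) and Ohler motif 7 (-2.16) changed direction. Divergent summits also lay nearer a start site (median 99 bp against 175 bp), and the part of this distance was not tested.

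The other 5 motifs did not differ past the threshold. The M1BP core GGTCACAC was at 14 divergent and 24 single-direction summits (background 0.991%, adjusted Fisher's exact p = 0.866). The cell cycle genes homology region (CHR, TTTGAA or TTCGAA), a site of the dREAM repressor complex, was at 137 and 216 (background 20.7%, adjusted Fisher's exact p = 0.343). The Myc E-box CACGTG was at 10 and 10 (background 0.653%), the Zelda motif CAGGTAG at 3 and 2 (background 0.496%) and Ohler motif 6 at 6 and 4 (background 0.27%), with adjusted Fisher's exact p of 0.343 to 0.446.

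**Figure D3:**
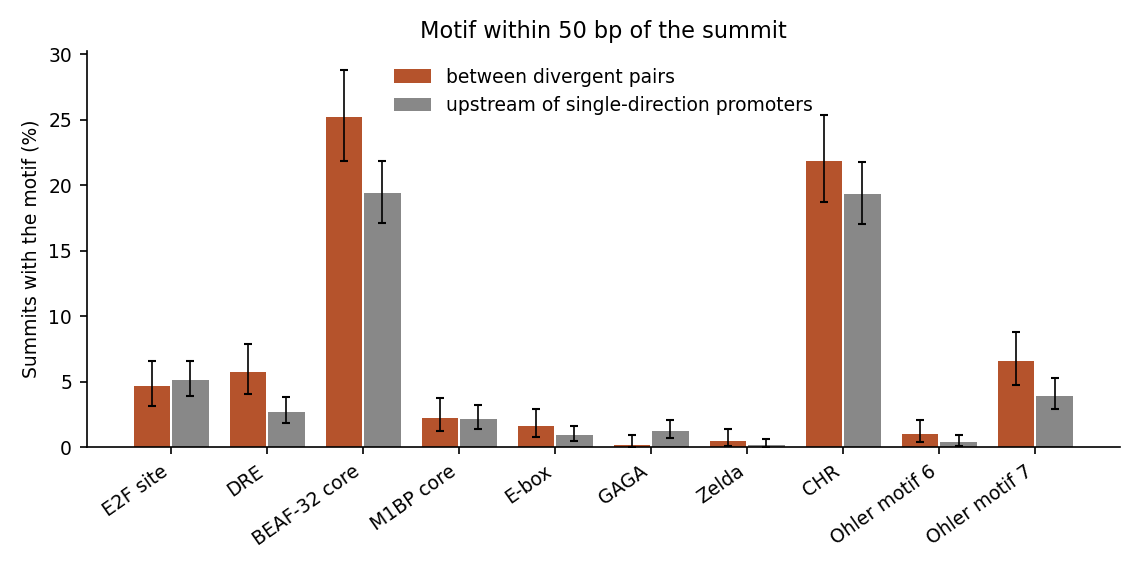
Share of summits (%) with each motif within 50 bp at the 626 divergent and the 1119 single-direction summits, with exact 95% intervals. The DRE bars stand at 5.75% and 2.68%, and the E2F site bars at 4.63% and 5.09%.

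The promoter motifs were densest beside the divergent summits. Ohler motif 7 occurred 0.719 times per kb within 50 bp of the summit, 1.26 times per kb at 50 to 150 bp and 0.362 times per kb at 150 to 300 bp. The M1BP core was also densest at 50 to 150 bp, with 0.240, 0.543 and 0.304 per kb in the same order, and so was the DRE, with 0.575, 0.719 and 0.277 per kb. E2F sites varied least over these distances, with 0.511, 0.663 and 0.634 per kb. The order of the distances is a description, with no test.

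**Figure D4:**
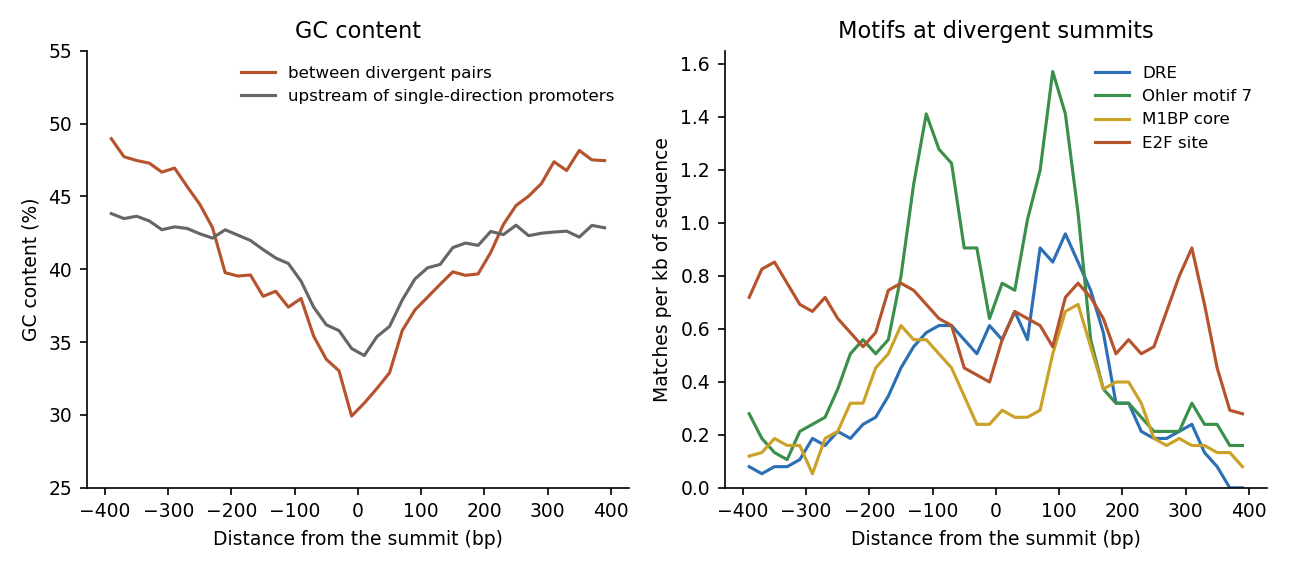
Left, mean GC content (%) by distance from the summit (bp, bins of 20 bp) at divergent and single-direction summits; right, motif matches per kb at divergent summits, smoothed over neighbouring bins. GC content at divergent summits dips to 29.9% in the bin just left of the summit, and Ohler motif 7 has a peak on each side of the summit.

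Bound and unbound divergent pairs were also compared by what lies within 100 bp of their midpoint. The 658 bound pairs were set against 1634 pairs with no region of any set within 500 bp of the stretch between their starts. Ohler motif 7 was in 73 bound pairs (11.1%) and 96 unbound ones (5.88%; 7.35% of all divergent pairs; odds ratio 2.00, adjusted Fisher's exact p = 2.93e-04), and this difference fell to 1.26 points with windows of 50 bp each side (adjusted Fisher's exact p = 0.316). E2F sites were in 43 bound pairs (6.53%) and 113 unbound pairs (6.92%), with 7.24% of all pairs as the background. DREs were in 64 (9.73%) and 139 (8.51%), with 8.55% of all pairs as the background and an adjusted Fisher's exact p of 0.531. Bound pairs had a median spacing of 278 bp and a median GC content of 31.3% there, and unbound pairs 304 bp and 33.8%. Within spacing classes, Ohler motif 7 was in 22.4% of bound against 13.9% of unbound pairs up to 100 bp, 23.1 against 10.8% at 100 to 200 bp, 13.3 against 5.80% at 200 to 300 bp, 2.29 against 2.30% at 300 to 500 bp and 3.39 against 1.14% beyond.

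DNA replication genes were among the lists with the largest share of bound divergent genes. Of all coding genes with a divergent partner, 1252 of 5052 (24.8%) had a divergent summit. The share was 16 of 30 for DNA replication and nucleotide supply, 9 of 21 for DNA repair, 5 of 11 for chromatin assembly and histone supply, 8 of 25 for mitosis and 4 of 11 for cyclins, Cdks and their regulators. It was 28 of 56 for cytosolic ribosomal proteins, 17 of 58 for mitochondrial ribosomal proteins, 12 of 43 for oxidative phosphorylation and 2 of 6 for glycolysis. None of the 26 chemoreceptor, 2 neuronal, 1 muscle and 1 patterning genes with a divergent partner had one. The counts follow partly from the rule, which needs a summit, and are given without a test.

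At divergent replication genes the summit leaned towards the replication gene. It was closer to the replication gene's start than to its partner's in 13 of 16, with median distances of 42.5 bp to its own start and 157 bp to the partner's. PolD2, a subunit of DNA polymerase delta, had its summit at 116 bp and its partner CG13933 at 370 bp, with heights of 501.6 in replicate 1 and 450.1 in replicate 2. RnrS, the small subunit of ribonucleotide reductase, which makes DNA precursors, had its summit at 170 bp, with 336.8 and 204.3. Mcm6 had its summit at 16 bp and CG3198 at 398 bp, with 210.4 and 69.5. The loading factor gene dup (Cdt1) and its partner SRPK, a kinase of splicing factors, had a summit with 362.4 and 147.6, and the helicase subunit gene dpa (Mcm4) and didum, a class V myosin, had one with 340.4 and 180.6.

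Ribosomal protein genes of the cytosol and of mitochondria gave different counts, and the difference was not tested. The summit was closer to the ribosomal gene in 23 of 28 cytosolic cases, at medians of 45.5 bp and 197 bp, and in 6 of 17 mitochondrial cases, at medians of 153 bp and 122 bp. The highest cytosolic ones were RpL7 with Ripalpha, the fly RPA-interacting protein (296.4 and 162.0 in replicates 1 and 2), and RpS27 with the nucleoporin gene Nup37 (196.3 and 178.4). For DNA repair genes the summit was closer to the listed gene in 3 of 9, for mitosis in 6 of 8 and for oxidative phosphorylation in 6 of 12. Of the 102 listed genes with a divergent summit, 62 lay closer to it than their partner did.

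For the E2F pathway, DNA repair and chromatin assembly, only the highest divergent summits of each list are named. The median height was 156.9 for the DNA repair list and 158.9 for chromatin assembly, against 141.6 for all divergent summits. Dp, the gene of the E2f1 partner itself, shares its promoter region with the F-box gene Fsn, with start sites 95 bp apart and a summit 20 bp from the Dp start that had an E2F site within 50 bp and heights of 262.7 in replicate 1 and 143.4 in replicate 2. It was the only 1 of 8 divergent E2F, Rb and dREAM genes with a divergent summit (12.5%, against 24.8% of all divergent genes). In DNA repair, mei-41, the fly ATR kinase, with TH1, a subunit of the pausing factor NELF, had 204.5 and 241.0, and Irbp, the Ku70 homologue, with mgr, a prefoldin subunit, had 210.6 and 184.6. His2Av, a variant histone, with the kinase gene ball had 122.8 and 94.6, and the chromatin assembly factor gene Caf1-105 with CG11777 had 151.8 and 66.3.

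Genes of mitosis, the cell cycle engine and metabolism spanned a wide range of heights. The summit between SMC2, a condensin subunit, and Ercc1, an excision repair nuclease, had 100.98 in replicate 1 and 153.3 in replicate 2. It was counted in both the mitosis and the DNA repair list. That of tum, a regulator of cytokinesis, with Uba3 had 128.9 and 75.5. The mitotic kinase gene Cdk1 with mRpS7 had 62.3 and 51.5, and ago, an F-box gene that targets Cyclin E, with CG1265 had 40.4 and 37.0. The first summit lay 265 bp from Cdk1 and 135 bp from mRpS7. The second lay 420 bp from ago and 50 bp from CG1265, and was not in the set of replicate 2. In the list of cyclins, Cdks and their regulators, 1 of 4 summits lay closer to the listed gene. Glycolytic Pglym78 with CG11882 had 61.6 and 37.8, and Eno with CG31937 had 63.5 and 33.6. The complex I genes ND-ASHI with Fum1, a fumarase gene, had 218.9 and 165.8, and ND-MWFE with the peptidase gene TppII had 121.6 and 136.8.

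The replicates were not equally high at every kind of divergent summit. Replicate 1 was the higher at 416 of 619 divergent summits (67.2%) and at 77.1% of all regions with a candidate in both lists. It was the higher at 26 of the 29 summits with an E2F site, with a median log2 ratio of 0.90, against 390 of the other 590 (66.1%), with a median log2 ratio of 0.17. It was the higher at 16 of 16 replication genes, with a median log2 ratio of 0.98, and at 23 of 28 cytosolic ribosomal genes, with 0.62, while for mitochondrial ribosomal genes it was 13 of 17, with 0.28. These counts were chosen after the values were seen, and no test is given.

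Base composition and distance moved with the same difference. The median GC content around summits with an E2F site was 43.6%, against 29.7% without one, and their nearer start site was a median of 50 bp away, against 100 bp. Among divergent summits with a GC content above 40%, replicate 1 was the higher at 16 of 17 with an E2F site (median log2 ratio 0.98) and 91 of 113 without one (0.65). At a GC content of 40% or less it was the higher at 10 of 12 with a site (0.39) and 299 of 477 without one (0.12). The heights have no stated rescaling between libraries, and the part of base composition in this difference was not tested.

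**Figure D5:**
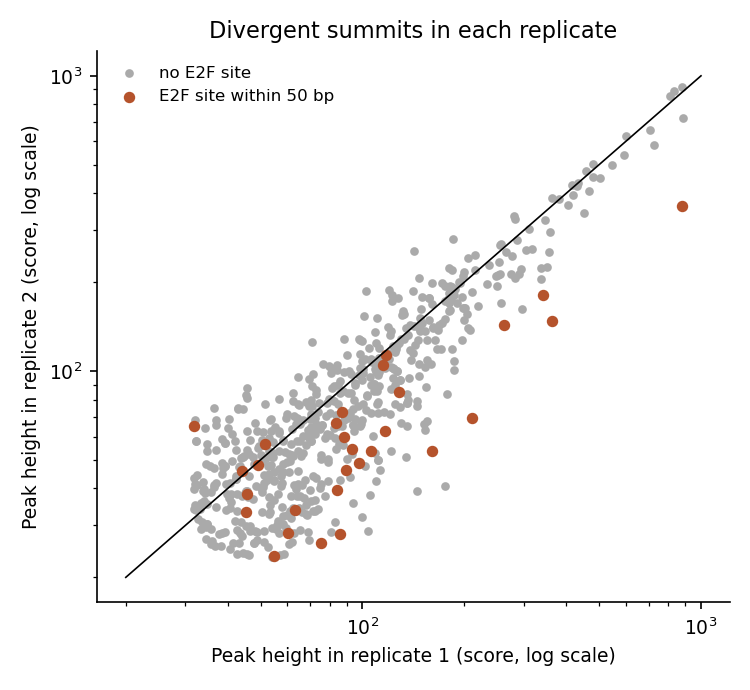
Peak height (score, log axes) of the divergent summits in replicate 2 against replicate 1, with the 29 summits that have an E2F site within 50 bp marked and the line of equal height drawn. Of the marked summits, 26 lie on the side of replicate 1.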

How the data were processed

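ChIP-seq regions from 2 biological replicates of 1 group of embryos were analysed. Chromatin was sonicated to 200 to 800 bp, per the labels. The aligner and the peak caller are not given in the sources used. The authors deposited thresholded sets for both replicates together (4439 conservative and 5167 larger regions) and for each replicate (3779 and 3280), with ranked candidate lists of 72771 and 71193 regions. Peak heights are scores as deposited by the authors, with no stated rescaling between libraries. The −log10 values, either of the global IDR (at most 5) or resembling a q-value, are also as deposited by the authors. The inputs of each replicate's own IDR are not named in the files, and the control named in the labels is not used here. Reads were not counted in any file, so depth is unknown, and intervals and tests run over regions or gene pairs, which are not independent replicates and which cover counting error only.

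Summits were annotated with Ensembl BDGP6.54, release 115, on the 6 major chromosome arms. No region ran past a chromosome end in the RefSeq dm6 assembly used for sequence. A region counted as shared at an overlap of at least 1 bp. Motifs were searched on both strands within 50 bp of a summit or 100 bp of a pair's midpoint, and 10 motifs were tested per comparison by two-sided Fisher's exact tests with Benjamini-Hochberg adjustment and a threshold of 0.05. The scripts were tested on simulated data. The members, the motifs and the 14 gene lists were chosen with earlier results of these data known. Named genes are those of the 10 highest members (1 of which is not reported here), the 2 highest members of each list with their partners, the smallest and largest spacing and, for sequences, up to 4 members for each of the E2F site and the DRE; dup, dpa and Mcm6 were added after their values were seen. Alternatives were the larger set, each replicate's set, an IDR of 0.001, upstream distances of 200 and 1000 bp, outermost start sites, other rules for sharing, other windows and, added after seeing the data, a q-like value of at most 0.05. Tests used scipy 1.17.1 and statsmodels 0.14.6 in Python 3.11.15, tables numpy 2.4.6 and pandas 2.3.3, and plots matplotlib 3.10.9.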

Additional observations from a re-analysis of the deposited data

How the results depend on the processing

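The share of regions between divergent starts, 14.1%, was 16.6% at an IDR of 0.001, 6.96% and 17.7% with upstream distances of 200 and 1000 bp, 10.8% with outermost start sites, 15.1% at a q-like value of at most 0.05 and 14.4 to 15.9% in the single replicates. The median spacing was 242 and 356 bp with the 200 and 1000 bp distances and 295 to 304 bp in the single replicates. The median distance from the midpoint was 22 and 66 bp with those distances, 40.5 bp at the IDR of 0.001, 43.8 bp at the q-like limit and 43 to 45 bp in the single replicates. The share of bound pairs was 26.7% with the larger set, 17.8% at the IDR of 0.001, 19.4% and 23.2% with the 200 and 1000 bp distances, 20.98% with outermost start sites, 22.6% at the q-like limit and 20.5 to 21.03% in the single replicates.

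The height difference from single-direction summits passed with the larger set (8.84 points), with the 200 bp distance (9.86 points) and in the set of replicate 1 (2.62 to 6.12 points over the single replicates), and was -0.142 points with outermost start sites. The difference in presence in both sets ended at the IDR of 0.001 (1.12 points), with outermost start sites (3.37), with a reciprocal overlap of 50% (4.33), with summits within 100 bp (4.15) and at the q-like limit (1.95), and ran from -2.39 to 10.5 points in the single replicates. The differences of the 200 to 300 bp class ran from 15.8 to 22.3 points for height and from 7.75 to 22.0 points for presence in both sets, but the class was picked for these values and the alternatives share its regions, so the range is no independent support. The E2F site difference from downstream summits ran from -14.0 to -3.87 points. That comparison was also picked after its values were seen, so its range is no independent support either.

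Near the summit, 4 motifs passed; 0 did at the IDR of 0.001, with the 200 bp distance, with outermost start sites, in windows of 25 bp and at the q-like limit, and 0 to 1 in the single replicates. At the 200 bp distance the direction changed for the BEAF-32 core (-6.50 points), Ohler motif 7 (-2.16), the M1BP core (-0.326), Ohler motif 6 (-0.109) and Zelda (-0.000349). At the IDR of 0.001 it changed for the M1BP core (-0.234) and the E-box (-0.321), with outermost start sites for the E-box (-0.543), and at the q-like limit for the E2F site (0.181), the M1BP core (-0.175) and Zelda (-0.0311). In the single replicates the M1BP core ran from -0.732 to -0.0116 points, the E-box from -0.136 to 0.701 and Zelda from -0.00827 to 0.0739. At pair midpoints 1 motif passed; 2 did with the larger set and in each single replicate (2 to 2), 3 at the IDR of 0.001 and with the 200 bp distance, and 4 with windows of 50 and of 200 bp each side. There the direction changed for the DRE with the narrower windows (-2.62 points), at the IDR of 0.001 (-0.296) and with the 200 bp distance (-0.0364), and for the M1BP core (4.05) and the BEAF-32 core (2.89) with the wider windows. It also changed for the BEAF-32 core with the 1000 bp distance (0.450), for the CHR with the 200 bp distance (-1.06), and for the E2F site with the larger set (0.107), the 200 bp distance (0.748) and the q-like limit (0.0381). In the single replicates the E2F site ran from -1.08 to 1.11 points and the DRE from -0.660 to 0.0494. The cause of these changes was not tested. Of the single-motif values, 134 kept their direction and side of the threshold, 26 lost and 13 gained a call in the same direction, and 27 changed direction. No paired analysis was possible because there is only 1 group. Unknown depth limits every statement on low summits.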

Other observations

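On the X chromosome divergent summits made up 67 of 874 regions (7.67%), against 14.5% on 2L, 16.2% on 2R, 15.3% on 3L and 16.6% on 3R, and 0 of 5 on chromosome 4. Of the divergent gene pairs, 69 of 403 on the X (17.1%) had such a summit, against 22.6% on 2L, 24.1% on 2R, 28.8% on 3L and 28.4% on 3R. These are counts with no test.

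In 39 gene pairs 2 divergent summits lay between the start sites, and 29 summits lay between more than 1 gene pair. Of the 626 divergent summits, those with a DRE had a median height of 116.1, with 17 of 36 in both replicate sets, against 144.6 and 67.8% for those without one, as a description. Summits with Ohler motif 7 had a median height of 107.4 against 144.1 without it. Those with an E2F site had 149.5 against 141.4.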
